A study of Mus musculus with 12 samples.

Results

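Caspases are cysteine proteases that cut their substrates after aspartate. The 7 mouse caspase genes described here, Casp1, Casp2, Casp4, Casp6, Casp8, Casp9 and Casp12, were chosen as a named list out of 30165 genes in the OPC table and 17918 in the neuron table. They divide by role into 3 inflammatory members (Casp1, Casp4 and Casp12) and 4 apoptotic members (Casp2, Casp8, Casp9 and Casp6). The list was selected with results of these libraries known, as Casp12 was singled out for its difference between dKO and ctl neurons and Casp4 is among the genes the study lists for OPCs. The differences of the 7 members between genotypes are therefore given as a description with no p-value printed, and counts of members past a threshold stand beside the share of all genes. All 7 were present in both tables, and all 7 passed the filter on low values, a minimum of 10 for the mean normalized count across the 6 libraries of a cell type.

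The series holds 12 RNA-seq libraries from mouse cortex, 3 in each of 4 groups. In dKO mice, tamoxifen (100 mg/kg on postnatal days 7 and 8) activated NG2-CreERT2, a recombinase expressed from the NG2 locus, to delete floxed exons 14 and 15 of Cacna1c and exon 2 of Cacna1d, which encode the pores of L-type calcium channels. The label of the ctl mice is WT. The sources used here do not say whether they carried the recombinase or floxed alleles or received tamoxifen, nor the age of the mice at cell isolation. Oligodendrocyte precursor cells (OPCs) were isolated by magnetic sorting for CD140, NG2 and O4, and neurons by depleting the astrocytes, endothelial cells, microglia and oligodendrocyte lineage cells that antibodies to ACSA-2, CD31, CD11b and O4 retain. NG2 is also made by pericytes, so recombination under this promoter need not be limited to OPCs. Each library pooled 2 mice, and the methods give 6 mice for each of ctl and dKO. They do not say whether the OPC and neuron libraries of a genotype came from the same mice. Total counts were 14935963 to 19812274 per OPC library and 15052892 to 16344601 per neuron library.

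Inflammatory caspases act in innate immunity. Casp1 is activated in inflammasomes and matures interleukin-1 family cytokines, Casp4 (known in mice as caspase-11) responds to bacterial lipopolysaccharide in the cytosol and cuts gasdermin D, and Casp12 is their relative at the endoplasmic reticulum, whose function is less settled. Apoptotic caspases run cell death in relays: Casp8 is recruited by death receptors, Casp9 by the Apaf1 apoptosome and Casp2 by the PIDDosome, and these initiators lead to executioners such as Casp6. In oligodendrocyte lineage cells and neurons, apoptotic caspases are known for removing surplus cells during development, whereas microglia are a main source of inflammatory caspases in brain.

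The members share the codon of the cysteine that attacks the substrate. A stretch of 39 coding bases around that codon is shown for each member, to let the likeness of the enzymes be seen at the site that defines the family. The sequences come from GENCODE M21 transcripts of GRCm38, and the cysteine codon is in capitals.
Casp1: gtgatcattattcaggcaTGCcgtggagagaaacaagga
Casp4: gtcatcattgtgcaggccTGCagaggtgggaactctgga
Casp12: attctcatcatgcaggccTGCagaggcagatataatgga
Casp2: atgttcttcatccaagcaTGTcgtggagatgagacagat
Casp8: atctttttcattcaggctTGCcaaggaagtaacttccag
Casp9: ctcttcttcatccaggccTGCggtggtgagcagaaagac
Casp6: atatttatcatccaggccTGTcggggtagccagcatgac
The cysteine codon was TGC in 5 members and TGT in Casp2 and Casp6. It was codon 284 of 402 in Casp1, 254 of 373 in Casp4 and 298 of 419 in Casp12. The window of Casp12 was identical to that of Casp4 at 27 of 39 bases, to those of Casp6 at 25, Casp1 and Casp9 at 23 and Casp8 at 21, and to that of Casp2 at 20.

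The inflammatory members also share a place in the genome. By the coordinates in the OPC table, Casp1 (ENSMUSG00000025888) lay on chromosome 9 from 5298508 to 5307290, Casp4 (ENSMUSG00000033538) from 5308828 to 5336783 and Casp12 (ENSMUSG00000025887) from 5345430 to 5373032, all on the plus strand and within 74.5 kb. Of the genes in the OPC table, these 3 alone lay within 200 kb of that stretch. The apoptotic members were on other chromosomes, with Casp8 on chromosome 1, Casp6 on 3, Casp9 on 4 and Casp2 on 6. Casp2 shares chromosome 6 with the targeted gene Cacna1c, at a distance of 76.3 Mb. The methods name GRCm38 and the submitters' processing notes list mm39 for these files. The starts in the table are not those of GRCm38 for all members, so they are given as deposited.

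The libraries were checked against markers of cell types before the caspases were compared. In OPC libraries, 8 oligodendrocyte markers summed to between 46808 and 81830 CPM, counts scaled to a common library total, against 259 to 1034 CPM for 7 OPC markers. In neuron libraries, 10 endothelial markers summed to between 7645 and 17860 CPM, against 738 to 1663 CPM for 10 markers of neurons. These sums are not scaled to gene length. Markers of more mature oligodendrocytes thus exceeded those of OPCs in the libraries labelled OPC, and endothelial markers exceeded neuronal ones in the libraries labelled neuron, so the fractions are called by their labels below. The targeted genes, counted over whole genes, had log2 fold changes in OPCs of -0.44 for Cacna1c (SE 0.15, adjusted p = 0.349, edgeR) and -0.55 for Cacna1d (SE 0.31, adjusted p = 0.531, edgeR), and in neurons of 0.44 and 0.80. Counts over whole genes need not show the loss of single exons.

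Levels of different genes were compared as TPM, which scales by gene length and library total. In ctl OPCs the order of the means was Casp9, Casp8, Casp2, Casp6, Casp12, Casp4 and Casp1. Casp9 had 15.8 ± 0.699 TPM (SD, n = 3), Casp8 12.9 ± 4.06, Casp2 11.7 ± 0.884 and Casp6 6.43 ± 0.972. The initiators were thus the highest, although Casp9 overlapped with Casp8. Casp12 had 4.75 ± 1.09 TPM, Casp4 1.63 ± 0.518 and Casp1 0.864 ± 0.358. Casp12 was the inflammatory member with most RNA in OPCs, each of its ctl libraries lying above those of Casp4, while Casp4 and Casp1 overlapped. Casp1 was near the bottom of the genes tested, with 4.80% of them below its mean.

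In the ctl neuron libraries the order was Casp6, Casp8, Casp2, Casp12, Casp9, Casp4 and Casp1. Casp6 had 94.9 ± 7.06 TPM (SD, n = 3), Casp8 81.0 ± 9.14 and Casp2 44.9 ± 4.16, and no library of one overlapped with the next. Casp12 had 41.1 ± 15.98 TPM and overlapped with Casp2. Casp9 had 15.6 ± 2.34 TPM, Casp4 13.0 ± 7.57 and Casp1 10.9 ± 5.78, and these 3 overlapped. In both cell types Casp12 was the highest inflammatory member and Casp1 the lowest by mean, whereas Casp6 was in first place in neuron libraries and below the 3 initiators in OPCs. TPM of the cell types came from tables counted in different ways, so the levels stand side by side without a test.

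**Figure D1:**
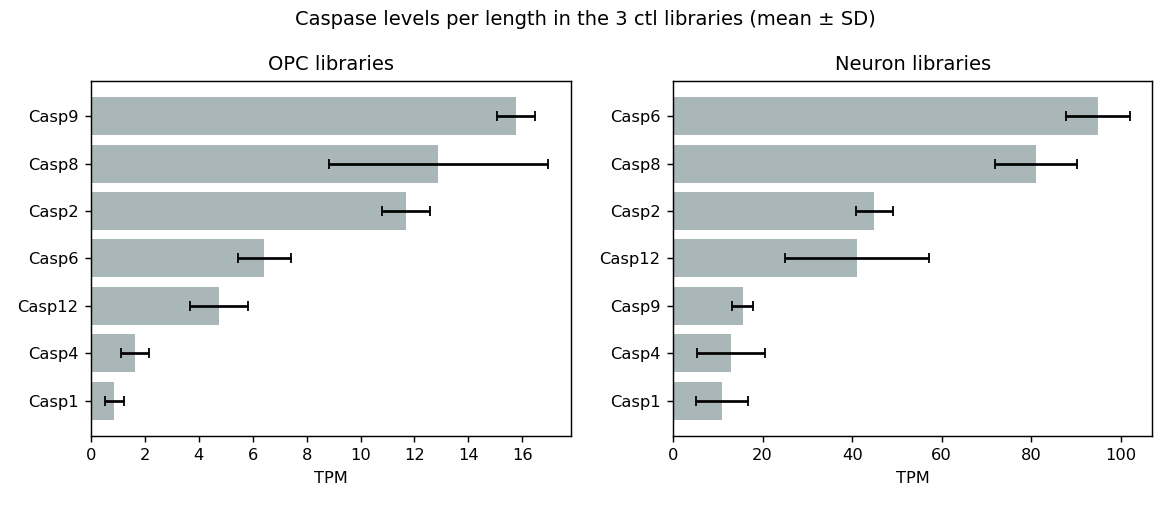
Mean TPM with SD of the 7 caspases in the 3 ctl libraries of OPCs (left) and neurons (right), ordered by mean, on separate linear axes. Casp9 leads in OPCs at 15.8 TPM and Casp6 in neurons at 94.9 TPM, and Casp1 is last in both.

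The comparison of dKO with ctl describes RNA differences in the fractions labelled OPC and neuron. The dKO mice had both channels targeted in NG2 cells. Values are TMM-normalized counts, which are scaled to library size but not to gene length. In bulk libraries, fewer cells of a type and less RNA per cell cannot be told apart. In OPCs the inflammatory members had the larger log2 fold changes and the apoptotic ones were near 0, whereas in neurons every member except Casp2 had a lower mean in dKO mice, with the largest differences on the log2 scale for the 3 inflammatory members.

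Casp4 in OPCs had 28.0, 20.2 and 38.7 normalized counts in ctl and 70.4, 38.1 and 80.2 in dKO libraries. Its log2 fold change was 1.11 (SE, the standard error of the fit, 0.39). A pair of the dKO libraries stood above every ctl library, and dKO replicate 2 lay just below the highest ctl library. Casp1 in OPCs had 19.2, 8.3 and 11.5 in ctl and 16.6, 20.9 and 33.2 in dKO libraries, with a log2 fold change of 0.82 (SE 0.47). These rest on raw counts of 7 to 31 reads per library, and the groups overlapped. The value of Casp1 was 0.49 without dKO replicate 3 and 1.23 without ctl replicate 1. Casp12 in OPCs had 69.1, 84.6 and 107.6 in ctl and 109.5, 78.9 and 128.4 in dKO libraries, with a log2 fold change of 0.28 (SE 0.27). The value of Casp12 was 0.11 without dKO replicate 3 and 0.45 without ctl replicate 3 or dKO replicate 2. The groups of Casp12 overlapped, and for all 3 inflammatory members dKO replicate 3 was the highest OPC library.

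Among the apoptotic members, Casp9 in OPCs had 379, 394 and 403 in ctl and 325, 362 and 362 in dKO libraries (log2 fold change -0.17, SE 0.12). It was the single member in OPCs whose groups did not overlap, by a small margin. Casp2 had 399, 420.4 and 366 in ctl and 406, 396 and 306 in dKO OPCs (log2 fold change -0.10, SE 0.15). Casp8 had 218, 112 and 207 in ctl and 205, 142 and 226 in dKO OPCs (log2 fold change 0.09, SE 0.28). Casp6 had 185, 141 and 191 in ctl and 165, 204 and 129 in dKO OPCs (log2 fold change -0.05, SE 0.22). These 3 members overlapped between groups and each turned sign when one library was left out: 0.012 for Casp2 and 0.088 for Casp6 without dKO replicate 3, and -0.15 for Casp8 without ctl replicate 2.

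In neurons, Casp12 had 1094, 640.0 and 643 normalized counts in ctl and 348, 390.0 and 387 in dKO libraries. The means were 792 ± 261 and 375 ± 23.6 (SD, n = 3), and the log2 fold change was -1.08 (SE 0.23). The dKO libraries were close together and all below the ctl libraries, of which replicate 1 stood far above the others. Without that library the log2 fold change was -0.77. Casp4 in neurons had 192, 91.4 and 99.6 in ctl and 70.5, 38.8 and 46.1 in dKO libraries (log2 fold change -1.30, SE 0.41) that was -0.88 without ctl replicate 1. Its groups did not overlap either. Casp1 in neurons had 189, 57.4 and 155 in ctl and 108, 69.1 and 50.2 in dKO libraries (log2 fold change -0.82, SE 0.48). Its groups overlapped, as ctl replicate 2 was among the lowest libraries, and the value was -0.49 without ctl replicate 1 and -1.18 without ctl replicate 2.

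Casp8 in neurons had 1653, 1408 and 1875 in ctl and 909, 1184 and 1249.9 in dKO libraries (log2 fold change -0.56, SE 0.17). Every dKO library of Casp8 was below every ctl library. Casp9 had 525, 613 and 497 in ctl and 297, 569.9 and 454 in dKO neurons, a log2 fold change of -0.31 (SE 0.24) that was -0.089 without dKO replicate 1. Casp6 had 1160, 1071 and 1149 in ctl and 882, 932 and 1107 in dKO neurons, a log2 fold change of -0.21 (SE 0.14). Casp2, the initiator of the PIDDosome, had 1228, 1521 and 1518 in ctl and 1467, 1577 and 1727 in dKO neurons, a log2 fold change of 0.16 (SE 0.14) that was 0.066 without ctl replicate 1 and 0.097 without dKO replicate 3. Casp2 was the single member with a higher mean in dKO neurons, and the groups of Casp9, Casp6 and Casp2 overlapped.

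**Figure D2:**
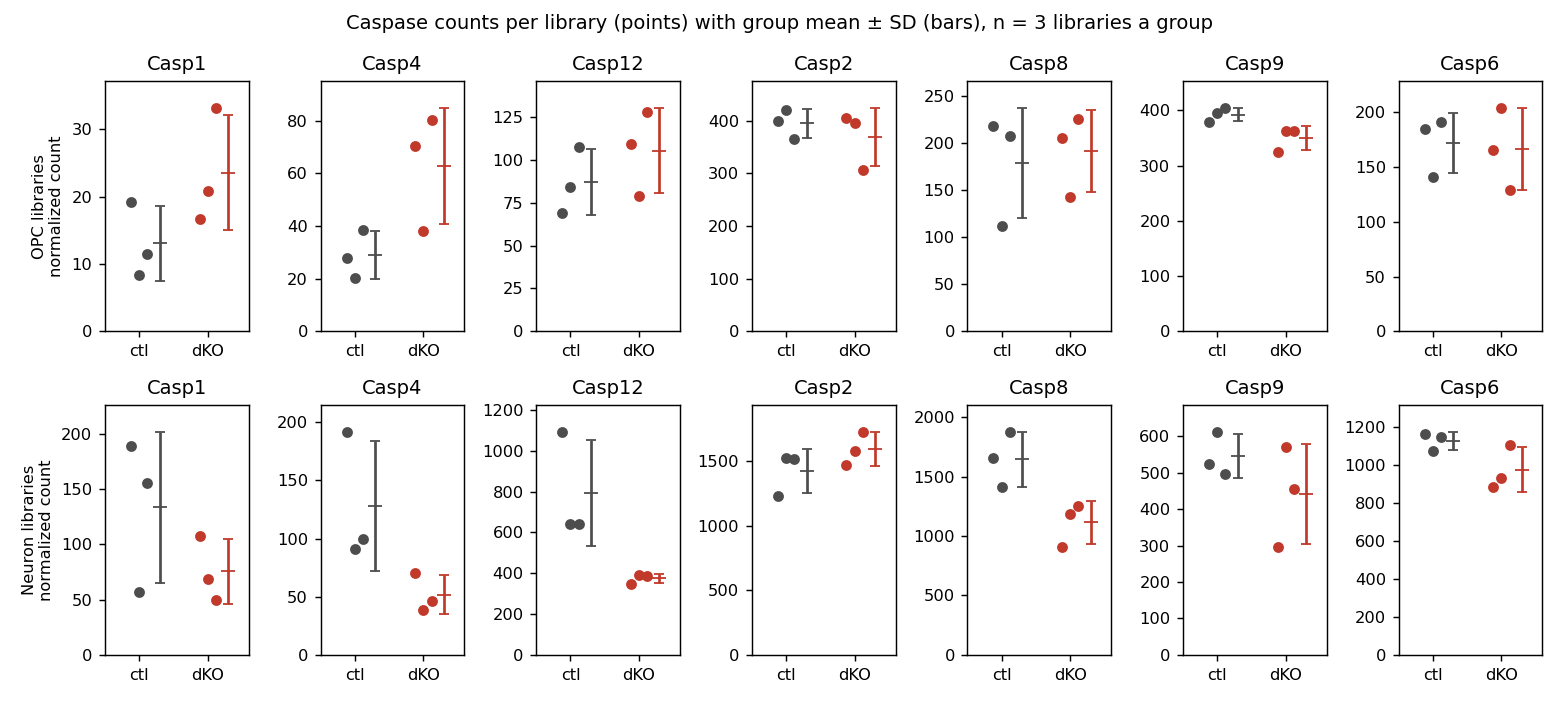
Normalized counts of the 7 caspases in each library (points) with the mean and SD of the 3 libraries of a group (bars), for OPCs (top) and neurons (bottom), on axes that start at 0. In neurons the dKO libraries of Casp4, Casp12 and Casp8 lie below all ctl libraries, and in OPCs those of Casp9 do.

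**Figure D3:**
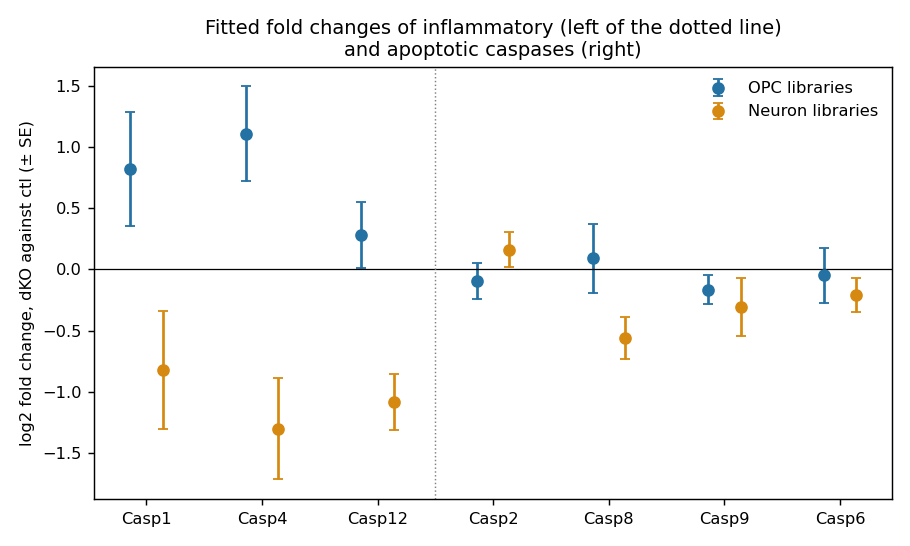
Fitted log2 fold changes of dKO against ctl with standard errors for the 7 members, in OPC and neuron libraries. Casp1, Casp4 and Casp12 have values above 0 in OPCs and below 0 in neurons, with Casp4 at 1.11 and -1.30.

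Of the 7 members, 0 had an adjusted p under 0.05 with edgeR in either cell type, where 0.00576% of the genes tested passed in OPCs and 0% in neurons. At an unadjusted p under 0.05 there was 1 member in OPCs, Casp4 with a higher value, beside 11.5% of all genes (6.27% higher and 5.27% lower in dKO). The number was 0 without any one of ctl replicate 1, ctl replicate 2, dKO replicate 1 and dKO replicate 3. In neurons there were 3 members, Casp4, Casp8 and Casp12, all lower, beside 9% of all genes (4.96% higher and 4.04% lower). The number was 2 without ctl replicate 1. With DESeq2 the numbers at an unadjusted p were the same, beside 11.8% of all genes in OPCs and 10.7% in neurons. At an adjusted p DESeq2 gave 0 members in OPCs, beside 1.68% of all genes, and 1 in neurons, Casp12, beside 0.62%. Groups did not overlap for 1 member in OPCs, which was lower, and for 3 in neurons, which were lower. Of all genes, 9.55% were lower without overlap in OPCs and 7.82% in neurons, and 7.41% and 7.5% were higher. The members were chosen on this contrast, so nothing is read from these counts.

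As a share of the summed TPM of the 7 members, the inflammatory caspases made up 11.8, 13.1 and 15.2% in ctl OPCs and 19.3, 15.05 and 23.5% in dKO OPCs. The dKO values reached higher, and dKO replicate 2 fell within the range of the ctl libraries. In neurons the share was 28.3, 17.0 and 17.8% in ctl and 16.03, 12.7 and 11.5% in dKO libraries. All dKO neuron libraries were below all ctl libraries, of which replicate 1 was again the highest. In OPCs the summed TPM of the 4 apoptotic members was 42.2 to 49.3 in ctl and 39.7 to 46.5 in dKO libraries, and the inflammatory sum was 6.39 to 8.83 in ctl and 7.03 to 14.3 in dKO libraries. In neurons the apoptotic sum was 230 to 246 in ctl and 140 to 239 in dKO libraries, and the inflammatory sum was 47.2 to 97.4 in ctl and 26.8 to 31.8 in dKO libraries. The lowest apoptotic sum was that of dKO replicate 1, and the other dKO libraries had 220 and 239. For all 7 members that library had the fewest TPM per normalized count of the 6 neuron libraries, with 2.55 TPM per 100 normalized counts of Casp2 against 2.94 to 3.42 in the others.

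**Figure D4:**
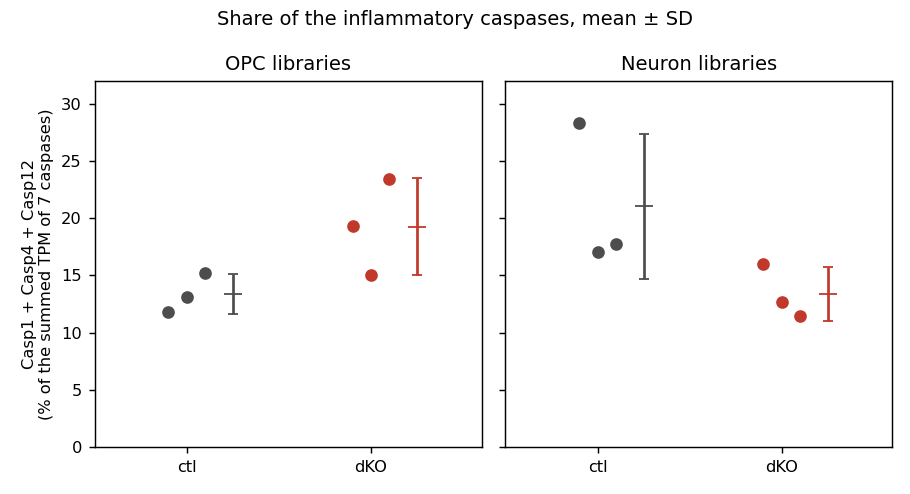
Casp1, Casp4 and Casp12 as a percentage of the summed TPM of the 7 caspases in each library (points), with the mean and SD of 3 libraries, in OPCs (left) and neurons (right). The share spans 15.05 to 23.5% in dKO OPCs and 11.5 to 16.03% in dKO neurons.

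Marker levels of other cell types also differed in mean between the groups, although 0 markers of any of these lists had an adjusted p under 0.05 with edgeR. All 12 microglia markers had higher means in dKO OPCs and an unadjusted p under 0.05, beside 6.27% of all genes higher at that p. Their median log2 fold change was 1.32, with sums of 279 to 334 CPM in ctl and 357 to 1118 CPM in dKO libraries. The lowest dKO sum was that of replicate 2, the dKO library in which Casp4 was also lowest, and no microglia marker was at 0. All 5 markers of border macrophages were higher in dKO OPCs as well, with sums of 16.1 to 16.6 CPM in ctl and 22.7 to 34.5 CPM in dKO libraries. All 7 astrocyte markers were higher, 6 of them at an unadjusted p under 0.05, with a median of 1.08 and sums of 1015 to 1810 CPM in ctl and 1734 to 5227 CPM in dKO libraries. All 10 endothelial markers were higher, at a median of 0.29, with sums of 1237 to 1795 CPM in ctl and 2168, 1008 and 2750 CPM in dKO replicates 1 to 3, in the order of Casp4 there. All 5 fibroblast markers and 9 of 10 neuronal markers were higher as well, at medians of 0.49 and 0.41. Of 8 mural cell markers 6 were higher and 2 lower, 0 at an unadjusted p under 0.05, at a median of 0.28. Their sums were 903 to 1288 CPM in ctl and 1527, 768 and 1580 CPM in dKO replicates 1 to 3. All 7 markers of OPCs were higher too, at a median of 0.62, and 6 of 8 oligodendrocyte markers were lower, at a median of -0.42. In dKO replicate 2, the dKO library with least Casp4, the astrocyte, OPC and neuronal sums were the highest, at 5227, 1034 and 275 CPM. In neuron libraries all 12 microglia markers had lower means in dKO mice, 0 of them at an unadjusted p under 0.05, at a median of -0.67 and overlapping sums of 442 to 2029 CPM in ctl and 422 to 1133 CPM in dKO libraries. Ctl replicate 1, the library with most Casp12, had the highest microglia sum. The second-highest was that of dKO replicate 2, at 1133 CPM with 390.0 normalized counts of Casp12, whereas ctl replicate 2 had 442 CPM with 640.0. All 10 endothelial markers had lower means, 3 of them at an unadjusted p under 0.05, beside 4.04% of all genes lower at that p, with a median of -0.39 and sums of 15295 to 17860 CPM in ctl and 7645 to 14029 CPM in dKO libraries, which did not overlap. All 8 oligodendrocyte markers had lower means in dKO neuron libraries, at a median of -1.02 and sums of 494 to 3703 CPM in ctl and 1022 to 1690 CPM in dKO libraries, as had all 5 markers of border macrophages, at a median of -0.87. Of the astrocyte markers 6 of 7 had lower means, 2 of them at an unadjusted p under 0.05, at a median of -0.41. Fibroblast markers had lower means in 4 of 5, at a median of -0.55. Of 8 mural cell markers 4 were higher and 4 lower, at a median of 0.0009. Of 7 OPC markers 3 were higher and 4 lower, at a median of -0.53. The OPC marker sums did not overlap, at 157 to 191 CPM in ctl and 194 to 240 CPM in dKO libraries. The neuronal markers had higher means in 9 of 10, at a median of 0.53. The part of these cell types in the values of the caspases was not tested.

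The genes whose log2(CPM + 1) followed a member most closely over 6 libraries were found for Casp12 in neurons and Casp4 in OPCs. For Casp12 these were Ccny, Lap3, Apod, Ifitm3 and Serpinb6a, with Pearson r of 0.994 to 0.991, and 76 of 14351 genes reached 0.95. Over the same libraries the r with Casp12 was 0.92 for Casp4, 0.79 for Casp8, 0.74 for Casp6 and 0.63 for Casp1. It was 0.50 for Casp9 and -0.77 for Casp2. For Casp4 in OPCs the closest genes were Ly86, Trem2, Tgfb1, Fmo1 and Lpcat2, with r of 0.995 to 0.992, and 175 of 17363 genes reached 0.95. Trem2 is one of the microglia markers above, and its log2 fold change in OPCs was 1.24. The 6 libraries belong to both genotypes, so these values describe shared differences between genotypes as well as between libraries.

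The neuron table holds estimated counts per RefSeq transcript. Casp12 had 4 transcripts, of which XM_036154581 took 73.9% of the gene's ctl counts and 69.2% of its dKO counts, and NM_009808 took 18.7% and 21.4%. Both transcripts were thus lower in dKO neurons, with mean estimated counts of 575 and 264 for the first and 145 and 81.7 for the second. Casp8 was split over 5 transcripts, the leading one with 34.2% of the ctl counts, and Casp4 over 6. Casp1, Casp2 and Casp6 had 1 transcript each. Transcripts of a gene share exons, so the split is an estimate, and the sums per gene were used elsewhere.

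The 250 bases before the RefSeq start sites of Casp12 and Casp4 are shown, as these neighbours had the largest log2 fold changes of the members in neurons. They are from GRCm38.p6, on the plus strand, at chr9:5345226-5345475 for Casp12 and chr9:5308599-5308848 for Casp4, where RefSeq gives a further start close by. Capitals mark matches to a searched motif on either strand.
Casp12: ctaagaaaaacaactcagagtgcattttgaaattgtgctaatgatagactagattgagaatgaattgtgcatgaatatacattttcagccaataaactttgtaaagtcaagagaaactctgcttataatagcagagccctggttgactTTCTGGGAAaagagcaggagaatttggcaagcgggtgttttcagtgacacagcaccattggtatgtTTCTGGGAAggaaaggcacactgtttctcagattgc
Casp4: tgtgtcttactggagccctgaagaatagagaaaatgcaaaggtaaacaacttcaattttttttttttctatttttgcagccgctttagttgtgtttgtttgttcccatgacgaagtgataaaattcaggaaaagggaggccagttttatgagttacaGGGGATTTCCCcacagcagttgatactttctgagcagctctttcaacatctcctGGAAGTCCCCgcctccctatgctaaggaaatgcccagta
The motifs were TTCNNNGAA, an inverted repeat, a pair of GAAA words separated by 2 bases, a core of the element bound by interferon regulatory factors, and the NF-kappaB consensus. They were chosen after the promoters had been seen. Casp12 held TTCNNNGAA at 2 places, both with the same 9 letters, a motif found before 7.18% of 27025 genes. Casp4 held the NF-kappaB consensus at 2 stretches, the first of which holds a pair of overlapping matches, and 7.01% of genes have it. The GAAA pair was found before 3.04% of genes and before none of the 7 members, and the other 5 members held none of the 3 motifs. A match of letters is no evidence of binding.

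Relatives and partners of the caspases were tested over all genes. Their lists were also chosen with results of these libraries known, so their p-values and counts are not independent of that choice. The lists include genes that the paper itself names as changed, such as Irgm1 in neurons and Il1b in OPCs. Cflar, a catalytically inactive relative that restrains Casp8, had 0.24 in OPCs, where groups overlapped (0.077 without dKO replicate 3 and 0.41 without ctl replicate 1), and -0.33 (SE 0.16, adjusted p = 0.564, edgeR) in neurons, where all dKO libraries were lower. Without dKO replicate 1 the value in neurons was -0.20. Casp8ap2 had -0.10 in OPCs and 0.02 in neurons.

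Genes that act upstream or downstream of the caspases were described in 9 lists, Cflar and Casp8ap2 being in 1 of them. In OPCs, 0 of 111 genes tested had an adjusted p under 0.05 with edgeR and 17 had an unadjusted p under 0.05, 16 higher and 1 lower, beside 11.5% of all genes. Their median log2 fold change was 0.23, against 0.0055 for all genes, and was 0.082 without dKO replicate 3. DESeq2 gave 3 genes at an adjusted p (Il1b, Il1a and Diablo), and edgeR 4 without dKO replicate 2 (Il1b, Il1a, Tnf and Irf8). DESeq2 called 1.68% of all genes in OPCs, and edgeR without dKO replicate 2 called 1.15%, or 199 of 17245. The edgeR count at an unadjusted p was 38 without dKO replicate 2, 9 without dKO replicate 3 and 8 without ctl replicate 2, where 13.3%, 11.2% and 6.34% of all genes passed. Over all fits that left out one library, 6.34 to 13.3% of all genes passed in OPCs and 5.45 to 11.03% in neurons, and the counts of single lists without a library are to be read beside these shares. In neurons, 0 of 112 genes had an adjusted p under 0.05 with edgeR and 30 had an unadjusted p under 0.05, 2 higher (Birc5 and Bcl2l2) and 28 lower, beside 9% of all genes, with a median of -0.23 against 0.0075 for all genes. DESeq2 gave 13 genes at an adjusted p in neurons, beside 0.62% of all genes.

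The inflammasome and pyroptosis list holds the sensors above Casp1 and Casp4 and the cytokines and pores below them. In OPCs 16 of its 19 genes tested had higher means in dKO mice and 5 had an unadjusted p under 0.05, all higher, beside 6.27% of all genes, with a median of 0.40 (0.17 without dKO replicate 3). That count was 2 without ctl replicate 2, 3 without any one of ctl replicate 1, ctl replicate 3 and dKO replicate 3, and 10 without dKO replicate 2. Il1b, a cytokine that Casp1 matures, had 49.0, 22.6 and 30.3 normalized counts in ctl and 127, 82.6 and 185 in dKO OPCs (log2 fold change 1.93, SE 0.39, adjusted p = 0.246, edgeR). Il1a had 92.7, 92.9 and 102 in ctl and 331, 132 and 477 in dKO OPCs (log2 fold change 1.70, SE 0.41, adjusted p = 0.283, edgeR). Both cytokines were higher in every dKO library, and dKO replicate 2 was the lowest of them. Without that library edgeR gave an adjusted p of 0.0327 for Il1b and 0.00657 for Il1a. The lipopolysaccharide receptor Tlr4 had a log2 fold change of 1.01 (SE 0.37, adjusted p = 0.372, edgeR), also without overlap. The other genes of that count were the sensor Nlrp3, at 1.06 (SE 0.42, adjusted p = 0.395, edgeR), and its partner Nek7, at 0.30 (SE 0.12, adjusted p = 0.412, edgeR). Without dKO replicate 3, Tlr4 had 0.55 and Nlrp3 0.64. Tnf, Irf8, Nlrp3, Nek7, Tnfsf10 and Bcl2l2 are named after their values were seen.

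In neurons 15 of the 16 genes tested of this list had lower means in dKO mice and 7 had an unadjusted p under 0.05, all lower, beside 4.04% of all genes, with a median of -0.57. Gbp2 and Gbp3 are guanylate-binding proteins that coat bacteria and help to activate Casp4. Gbp2 had 8105, 2932 and 4346 in ctl and 1623, 2183 and 1916 in dKO neurons, a log2 fold change of -1.43 (SE 0.34, adjusted p = 0.521, edgeR). Gbp3 had a log2 fold change of -1.32 (SE 0.31, adjusted p = 0.521, edgeR). In both, ctl replicate 1 was the highest library, as for Casp12, and without it the values were -0.93 and -1.004. Txnip had -0.45 (SE 0.14, adjusted p = 0.521, edgeR), without overlap.

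The interferon response list holds genes that interferons induce. In neurons 18 of its 18 genes had lower means in dKO mice and 15 had an unadjusted p under 0.05, beside 4.04% of all genes lower at that p, with a median of -0.79. Groups did not overlap for 14, beside 7.82% of all genes lower without overlap. The count was 13 to 16 when any one library was left out, and 10 genes had an adjusted p under 0.05 with DESeq2, beside 0.62% of all genes. Ifi35 had 1768, 1724 and 1946 in ctl and 1085, 1235 and 1238 in dKO neurons, a log2 fold change of -0.61 (SE 0.13, adjusted p = 0.521, edgeR). Ifit3 had -0.95 (SE 0.21, adjusted p = 0.521, edgeR), and Tap1, a subunit of the peptide transporter of antigen presentation, -1.72 (SE 0.42, adjusted p = 0.521, edgeR). Without ctl replicate 1 Tap1 had -1.09. In OPCs 17 of the 18 genes had higher means in dKO mice and 7 had an unadjusted p under 0.05, all higher, beside 6.27% of all genes, with a median of 0.44 (0.25 without dKO replicate 3). That count was 12 without dKO replicate 2 and 4 without ctl replicate 1 or dKO replicate 1. It was 3 without ctl replicate 2, and without dKO replicate 3 it was 1 higher and 1 lower. Ifit3, Irf1 and Irgm1 had log2 fold changes in OPCs of 0.68, 0.45 and 0.69 (SE 0.18, 0.15 and 0.26, adjusted p = 0.296, 0.348 and 0.375, edgeR), each higher in every dKO library. Without dKO replicate 3, Irf1 had 0.28 and Irgm1 0.42. Of 13401 symbols tested in both cell types, 0.798% were higher without overlap in dKO OPCs and lower without overlap in dKO neurons, among them these 3 genes.

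**Figure D5:**
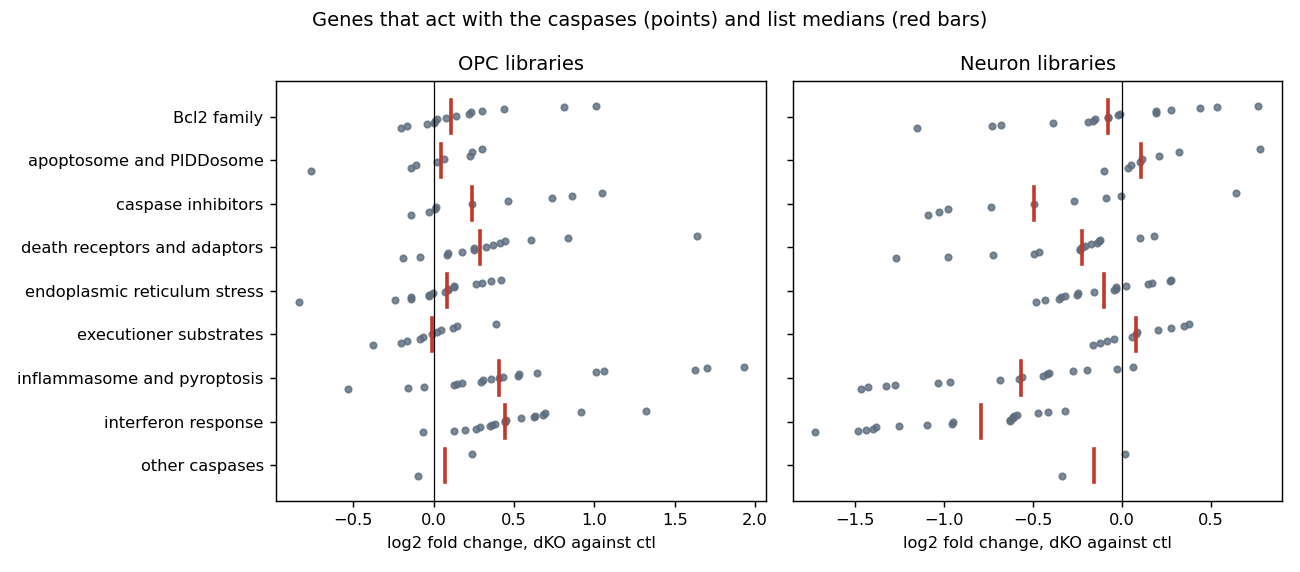
Log2 fold changes of dKO against ctl for each tested gene (points) of 9 lists of genes that act with caspases, with the median of each list (red bars), in OPCs (left) and neurons (right). The interferon response list has a median of -0.79 in neurons and 0.44 in OPCs, or 0.25 there if dKO replicate 3 is left out.

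Of the death receptors and adaptors, which lead to Casp8, 3 of 14 in OPCs had an unadjusted p under 0.05 and were higher, beside 6.27% of all genes, and 3 of 15 in neurons were lower, beside 4.04%. The OPC median was 0.29, and 0.087 if dKO replicate 3 was left out. The median in neurons was -0.23, and -0.14 if dKO replicate 1 was left out. These counts were 6 in OPCs without dKO replicate 2, 1 without ctl or dKO replicate 3, and 1 in neurons without either of those. The death receptor Tnfrsf21 had 0.41 in OPCs (SE 0.14, adjusted p = 0.348, edgeR). The cytokine Tnf had 1.64 in OPCs (SE 0.54, adjusted p = 0.330, edgeR), where its groups overlapped, and 0.96 without dKO replicate 3. The receptor Tnfrsf1a had 0.37 in OPCs (adjusted p = 0.418, edgeR) and -0.49 in neurons (adjusted p = 0.533, edgeR), without overlap in either. These were 0.20 without dKO replicate 3 in OPCs and -0.32 without dKO replicate 1 in neurons. The ligand Tnfsf10 had -0.98 in neurons (SE 0.30, adjusted p = 0.521, edgeR), with overlap. In neurons Fasl, the ligand of Fas, had -1.27 (SE 0.43, adjusted p = 0.521, edgeR, and -0.81 without ctl replicate 3) and Ripk3, the kinase of necroptosis, -0.72 (SE 0.39, adjusted p = 0.610, edgeR).

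Of 8 genes of the apoptosome and PIDDosome, which lead to Casp9 and Casp2, 1 in OPCs and 0 in neurons had an unadjusted p under 0.05, beside 11.5% and 9% of all genes, with medians of 0.04 and 0.11. In OPCs the median was -0.096 without ctl replicate 2, and the count was 1 higher and 1 lower without dKO replicate 3. In neurons the count was 1 without dKO replicate 1 or 2. The gene in OPCs was Diablo, a mitochondrial protein that relieves the inhibition of caspases, with 257, 261 and 284 in ctl and 126, 192 and 153 in dKO OPCs. Diablo was lower in all dKO libraries, with a log2 fold change of -0.77 (SE 0.19, adjusted p = 0.287, edgeR, and 0.0277 with DESeq2). Htra2, a mitochondrial protease, had 0.30 in OPCs (adjusted p = 0.468, edgeR), and Aifm1 had 0.32 in neurons (adjusted p = 0.582, edgeR, and 0.19 without dKO replicate 3). For the Bcl2 family, which controls the release of cytochrome c, 0 of 14 genes in OPCs and 1 of 17 in neurons had an unadjusted p under 0.05, against the same shares, with medians of 0.11 and -0.08. The count in OPCs was 4 without dKO replicate 2. In neurons it was 0 higher and 3 lower without ctl replicate 2, 2 lower without dKO replicate 1, and 0 without either replicate 3. The gene in neurons was Bcl2l2, at 0.53 (SE 0.23, adjusted p = 0.550, edgeR), whose groups overlapped. The genes of the family without overlap were Bmf in OPCs, at -0.20 (adjusted p = 0.629, edgeR, and -0.12 without ctl replicate 2), and Bcl2l11 in neurons, at -0.39 (adjusted p = 0.554, edgeR).

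Of 9 caspase inhibitors tested, 0 in OPCs and 3 in neurons had an unadjusted p under 0.05 (2 lower and 1 higher), beside 11.5% and 9% of all genes, with medians of 0.24 and -0.49. The median in OPCs was 0.58 without dKO replicate 2 and 0.11 without ctl replicate 1 or dKO replicate 3. The count in OPCs was 3 without dKO replicate 2 and 2 without ctl replicate 1. Serpinb9, an inhibitor of granzyme B, had 4263, 3579 and 4362 in ctl and 1913, 2678 and 2748 in dKO neurons, a log2 fold change of -0.73 (SE 0.18, adjusted p = 0.521, edgeR). Birc3, a ubiquitin ligase that restrains Casp8 signalling, had 0.74 in OPCs (adjusted p = 0.444, edgeR) and -0.49 in neurons (adjusted p = 0.521, edgeR). In OPCs it had 0.36 without dKO replicate 3. Birc5, which also acts in cell division, had 0.64 in neurons (SE 0.20, adjusted p = 0.521, edgeR). For endoplasmic reticulum stress, the setting in which Casp12 is mostly studied, 1 of 16 genes had an unadjusted p under 0.05 in each cell type, beside the same shares of all genes, with medians of 0.08 in OPCs and -0.10 in neurons. The count in OPCs was 0 without ctl replicate 2 or dKO replicate 3 and 2 without ctl replicate 1 or dKO replicate 2. In neurons it was 0 without any one of the ctl libraries or dKO replicate 1, and 2 without dKO replicate 2. The gene in OPCs was the calpain Capn2, at 0.36 (SE 0.13, adjusted p = 0.373, edgeR) and 0.22 without dKO replicate 3, and the gene in neurons the chaperone Dnajb9, at -0.34 (SE 0.15, adjusted p = 0.550, edgeR). Capn1 had 0.42 and Chac1 -0.84 in OPCs, and Xbp1 had -0.25 in neurons. Without a single library these were 0.27 for Capn1 (ctl replicate 2), -0.51 for Chac1 (dKO replicate 2) and -0.12 for Xbp1 (dKO replicate 1). Of 11 substrates of executioner caspases, 0 had an unadjusted p under 0.05 in either cell type, with medians of -0.012 and 0.08. The medians of the apoptosome, Bcl2 family, stress and substrate lists ranged from -0.19 to 0.21 with any one library left out.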

How the data were processed

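RNA was sequenced from 12 libraries of OPCs and neurons. The OPC file deposited by the authors gives raw counts and FPKM values for each Ensembl gene. Their methods name HISAT2, GRCm38 and featureCounts for the samples without exception, while the submitters' notes list mm39. For neurons, the authors deposited estimated counts, not whole numbers, and TPM for 66298 RefSeq transcripts, and a program for values per transcript is not given in the sources used here. Estimated counts were summed per gene and rounded, and 17794 of 17918 gene identifiers were matched to symbols through RefSeq (GRCm38.p6). Unmatched identifiers took 0.0441% of these counts. OPC FPKM values were rescaled to TPM. The deposited DESeq2 columns hold the authors' fold changes and p-values and were not used, nor were 18 columns that hold values of the same samples in other units. Groups came from column names and sample titles.

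Genes whose TMM-normalized counts averaged 10 or more were tested with edgeR 4.0.16 (R 4.3.3, quasi-likelihood test), dKO against ctl within a cell type, with Benjamini-Hochberg adjustment over all genes tested at 0.05. Cell types were counted in different ways and no test was run between them. The code was tested on simulated counts in which 200 genes differed by 2 on the log2 scale. In OPCs it called 168 of the 191 that could be tested and 13 others, and in neurons 172 of 198 and 8 others. The smallest p of an exact permutation test of 3 libraries against 3 is 0.1. Nothing in the labels says whether mice were shared between libraries, such as an OPC and a neuron library of the same genotype. The p-values measure the spread between pools of 2 mice.

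The members and gene lists were chosen with earlier results of these data known. Some genes of the lists are not reported here and are left out of the counts. Genes named in the text were all members, the relatives in the first list, the targeted genes, up to 3 genes of each other list and cell type with the smallest p among those without overlap between groups, and the 5 genes most like Casp12 in neurons and Casp4 in OPCs. The 11 other settings tried per cell type were DESeq2 1.42.0, RLE size factors, no filter, a minimum of 50, a replicate block and each library left out.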

Additional observations from a re-analysis of the deposited data

Results flagged for a closer look

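For 5 of 115 member and related genes tested in both cell types, every dKO library was above every ctl library in OPCs and below every ctl library in neurons. Of all genes tested, 7.41% were higher without overlap in OPCs, 7.82% were lower without overlap in neurons, and 0.798% of the 13401 symbols tested in both had both arrangements. The difference between cell types was not tested, since their counts were made in different ways. The log2 fold changes in OPCs and neurons were 0.37 and -0.49 for Tnfrsf1a and 0.74 and -0.49 for Birc3. For Irf1 they were 0.45 and -0.96, for Ifit3 0.68 and -0.95, and for Irgm1 0.69 and -1.44. Without dKO replicate 3 the values in OPCs were 0.20 for Tnfrsf1a, 0.36 for Birc3, 0.28 for Irf1 and 0.42 for Irgm1. In neurons Tnfrsf1a had -0.32 without dKO replicate 1. None of the 7 members had this arrangement, as the groups overlapped for Casp1, Casp4 and Casp12 in OPCs.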

How the results depend on the processing

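The members' log2 fold changes moved by less than the SD between replicates in all 75 alternative values in OPCs and all 77 in neurons. There were 6 changes of sign in OPCs and 0 in neurons. Leaving a single library out of a group can hardly move its mean by that SD, so this bound says little about those fits. With a library left out, Casp9 in neurons ranged from -0.53 to -0.089 and Casp1 in neurons from -1.18 to -0.49. Casp1 and Casp4 in OPCs had no value with a minimum of 50. Of the related genes named in the text, Casp8ap2 in neurons turned to -0.022 without ctl replicate 2 and -0.0040 without dKO replicate 2, and reached at most 0.054 with a library left out. The cause was not tested. For genes that act with caspases, the count at an adjusted p under 0.05 in OPCs, 0 with edgeR, was 3 with DESeq2, 2 without the filter and 0 to 4 with a library left out, where 0.288% and at most 1.15% of all genes passed. At an unadjusted p it was 29 without the filter, beside 9.15% of all genes, and 8 to 38 with a library left out. The cause was not tested. In neurons the adjusted count was 13 with DESeq2 and 0 with each library left out, and the unadjusted count was 22 to 36. DESeq2 called 291 of all genes in OPCs and 89 in neurons. With a replicate block the unadjusted count was 25 in OPCs and 27 in neurons, beside 11.7% and 8.95% of all genes. The adjusted count was 0 in both, beside 0.155% and 0% of all genes. Same-numbered libraries did not deviate together throughout (r of -0.15, 0.19 and 0.17 in OPCs, and 0.17, -0.04 and -0.05 in neurons). Whether they share a batch cannot be told from these values. Depth limits Casp1 in OPCs, at 7 to 31 reads per library.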
